A study of Mus musculus with 9 samples.

Results

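The colony-stimulating factors, leukaemia inhibitory factor (LIF), interleukin-6 and their receptors were described in mouse RAW264.7 cells, an established macrophage-like line. The members were the rows of the deposited gene table named Csf1 (ENSMUSG00000014599), Csf2 (ENSMUSG00000018916), Csf3 (ENSMUSG00000038067), Lif (ENSMUSG00000034394) and Il6 (ENSMUSG00000025746), the ligands, and Csf1r (ENSMUSG00000024621), Csf2ra (ENSMUSG00000059326), Csf2rb (ENSMUSG00000071713), Csf3r (ENSMUSG00000028859) and Il6st (ENSMUSG00000021756), the receptors. They are 10 of the 56748 genes listed. All 10 were found and all 10 passed the filter on low counts. RNA sequencing had been done on 9 libraries in 3 groups of 3. The P-Mn/TI@mHSA group received nanoparticles that carried nanoenzymes, which are materials with enzyme-like activity, together with an inhibitor of TRAF6, an adaptor protein through which Toll-like receptors signal. The P-Mn@mHSA group received nanoenzyme particles without that inhibitor, and the PBS group received the buffer. All 3 groups, PBS included, shared a model condition whose nature the labels leave out, so no library shows untouched cells. The cells were one line, and since nothing states that the triplicates were grown apart, each p-value reflects only library-to-library spread, perhaps of technical origin.

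The colony-stimulating factors are secreted proteins that keep myeloid cells alive and steer their growth. CSF1 (M-CSF) acts through the receptor kinase CSF1R and sustains macrophages, CSF2 (GM-CSF) acts through a specific alpha chain and a shared beta chain, and CSF3 (G-CSF) acts through CSF3R on cells of the neutrophil line. LIF and interleukin-6 bind their own receptor chains and then share the signalling chain gp130, which Il6st encodes. Activated macrophages make several of these ligands within hours of a bacterial or inflammatory stimulus, and the ligand mRNAs are known for AU-rich stretches in their 3′ untranslated regions (UTRs) that decay factors recognise.

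The AU-rich stretches of the 5 ligand genes are shown because they are the known handle by which such mRNAs are removed. Each window is the stretch of 30 bases that held the most ATTTA pentamers in the longest annotated 3′ UTR (GENCODE M21, GRCm38), with ATTTA in capitals.
Csf1, chr3:107741109-107741138, minus strand: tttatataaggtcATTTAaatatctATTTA
Csf2, chr11:54247327-54247356, minus strand: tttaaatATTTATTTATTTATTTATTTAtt
Csf3, chr11:98702984-98703013, plus strand: gatagtttATTTAtctctATTTAatATTTA
Lif, chr11:4272414-4272443, plus strand: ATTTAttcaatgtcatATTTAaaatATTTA
Il6, chr5:30019677-30019706, plus strand: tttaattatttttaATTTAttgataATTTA
Over the whole 3′ UTR, Csf2 held 9 pentamers in 317 bases, Csf3 6 in 669 bases, Lif 7 in 3180 bases, Il6 10 in 1668 bases and Csf1 4 in 2111 bases. The longer element TTATTTATT, which contains the pentamer, occurred 4 times in Csf2 and 2 times in Lif and was absent from the other members, while 7.65% of 21037 genes with an annotated 3′ UTR held it. Among the receptors, Il6st held 9 pentamers in 5641 bases and Csf1r 3 in 1669 bases, and Csf2ra, Csf2rb and Csf3r held none. Over all genes 35.6% held at least 3 pentamers, as did all 5 ligands and 2 of the 5 receptors. These counts were not corrected for UTR length. Per kilobase, Csf2 held 28.4 pentamers, Csf3 8.97, Il6 6, Lif 2.2 and Csf1 1.89. The receptors Csf1r and Il6st held 1.8 and 1.6 per kilobase, so Lif and Csf1 were close to them by this measure.

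Promoter windows of 300 bases, from 250 before to 50 after the RefSeq start (GRCm38.p6), were available for 7 of the 10 members. There was none for Csf3, Csf1r and Csf2rb. Those of Lif and Csf1 are shown because both genes rose in both particle groups, and that of Il6 because it held the most kinds of the motifs searched. Capitals mark the motif matches.
Lif, chr11:4257318-4257617, plus strand: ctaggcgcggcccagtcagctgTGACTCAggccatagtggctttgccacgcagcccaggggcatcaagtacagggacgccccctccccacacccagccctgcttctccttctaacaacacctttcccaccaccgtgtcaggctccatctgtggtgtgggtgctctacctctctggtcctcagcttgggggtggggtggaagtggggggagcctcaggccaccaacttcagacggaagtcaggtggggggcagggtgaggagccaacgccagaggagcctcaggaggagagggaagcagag
Csf1, chr3:107760420-107760719, minus strand: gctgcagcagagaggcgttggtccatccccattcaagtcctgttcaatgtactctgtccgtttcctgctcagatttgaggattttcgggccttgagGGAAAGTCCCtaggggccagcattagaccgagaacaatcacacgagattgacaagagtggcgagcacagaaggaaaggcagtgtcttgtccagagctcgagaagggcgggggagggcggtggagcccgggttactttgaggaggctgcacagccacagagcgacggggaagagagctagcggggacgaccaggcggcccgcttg
Il6, chr5:30012864-30013163, plus strand: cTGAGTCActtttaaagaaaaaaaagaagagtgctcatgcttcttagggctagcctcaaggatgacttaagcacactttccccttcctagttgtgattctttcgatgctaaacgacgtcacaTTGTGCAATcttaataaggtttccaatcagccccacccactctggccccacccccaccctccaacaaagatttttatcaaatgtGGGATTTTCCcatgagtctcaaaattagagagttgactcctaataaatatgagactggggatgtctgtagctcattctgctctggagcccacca
The letters were searched on both strands, and the matches shown do not overlap each other. The Lif window held 1 AP-1 motif, TGANTCA, 228 bases before the start, and 7.81% of 32851 promoter windows of this length held one. The Csf1 window held 1 NF-kB motif, 154 bases before the start, a motif found in 4.51% of windows. The Il6 window held an NF-kB motif 44 bases, a C/EBP motif (TTNNGNAAT, 11.5% of windows) 128 bases and an AP-1 motif 249 bases before the start. Of the other 4 windows, that of Csf2ra held a CRE (TGACGTCA, 1.79% of windows) and a hypoxia element (ACGTG, 19.6% of windows), and those of Csf2, Csf3r and Il6st held none of the 7 motifs, which also included the CK-1 core GAGATTCC (0.904% of windows) and the STAT motif TTCNNNGAA (8.3% of windows). A match is a description of the letters and says nothing of a factor's binding in these cells. Sequence outside these windows was not searched, so a window without a motif does not show that the gene lacks one.

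Total counts were 13994570 to 15543439 per library, and no 2 libraries held identical counts. Levels are given as CPM, read counts per library size scaled between libraries by the TMM method, and levels of different genes are compared only as FPKM, which also divides by gene length. Changes were tested with edgeR's quasi-likelihood test over 12454 genes, two-sided, and called at a Benjamini-Hochberg adjusted p under 0.05. The macrophage label was checked against 10 marker genes, all with counts, of which Mertk had at most 1 count in a library. Their summed level was 4698 to 5054 CPM in P-Mn/TI@mHSA, 4559 to 4836 CPM in P-Mn@mHSA and 5839 to 6105 CPM in PBS. The member Csf1r gave 2294 to 2474, 1915 to 2247 and 1562 to 1735 CPM of this in the same order. Its higher level with particles thus masked part of the fall in the sum of the other markers. Lyz2 (463 to 590, 537 to 637, and 1846 to 1851 CPM, in the same order) and Adgre1 (25.1 to 30, 24.7 to 28.1, and 96.7 to 115 CPM) had lower ranges with particles, as did Itgam, Cd14 and Ptprc, whereas Cd68, Fcgr1 and the member Csf1r had higher ones. Each list for T cells, B cells, epithelial cells, fibroblasts, endothelial cells, dendritic cells and neutrophils summed to at most 2.41 CPM in any library. The 5 neutrophil markers summed to 0.136 to 0.848, 0.355 to 0.768 and 1.37 to 2.41 CPM in the same order, with Ly6g and S100a9 at 0 in all 9 libraries. The 4 fibroblast markers summed to 0.0652 to 0.339, 0.142 to 0.812 and 1.03 to 1.96 CPM, with Col1a2 at 0 in all 9 and Dcn at 1.02 to 1.76 CPM in PBS. The part of these shifts in the results on the members was not tested.

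In the PBS group these cells transcribed one ligand far above the rest. Csf3 reached 490 ± 53 FPKM (SD, n = 3), rank 80 among all genes by mean FPKM, and made up 92.7 to 93.3% of the summed FPKM of the 5 ligands. With particles the summed ligand RNA was smaller and shared between 2 genes. Csf3 was 43.5 to 47.2% of the ligand sum in P-Mn/TI@mHSA and 44.8 to 46.5% in P-Mn@mHSA. Lif was 43.3 to 47.4% and 42.6 to 45.8%, in the same order, against 3.7 to 4.25% in PBS. The ligand sum itself was 151 ± 14.6 FPKM in P-Mn/TI@mHSA, 206 ± 12.9 FPKM in P-Mn@mHSA and 528 ± 58 FPKM in PBS. The receptor sum ran the other way, at 450 ± 13.6, 399 ± 32.2 and 322 ± 18 FPKM in the same order, and Csf1r made up 86.8 to 93% of it in every library. These sums are descriptions, since they are dominated by Csf3, Lif and Csf1r.

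**Figure D1:**
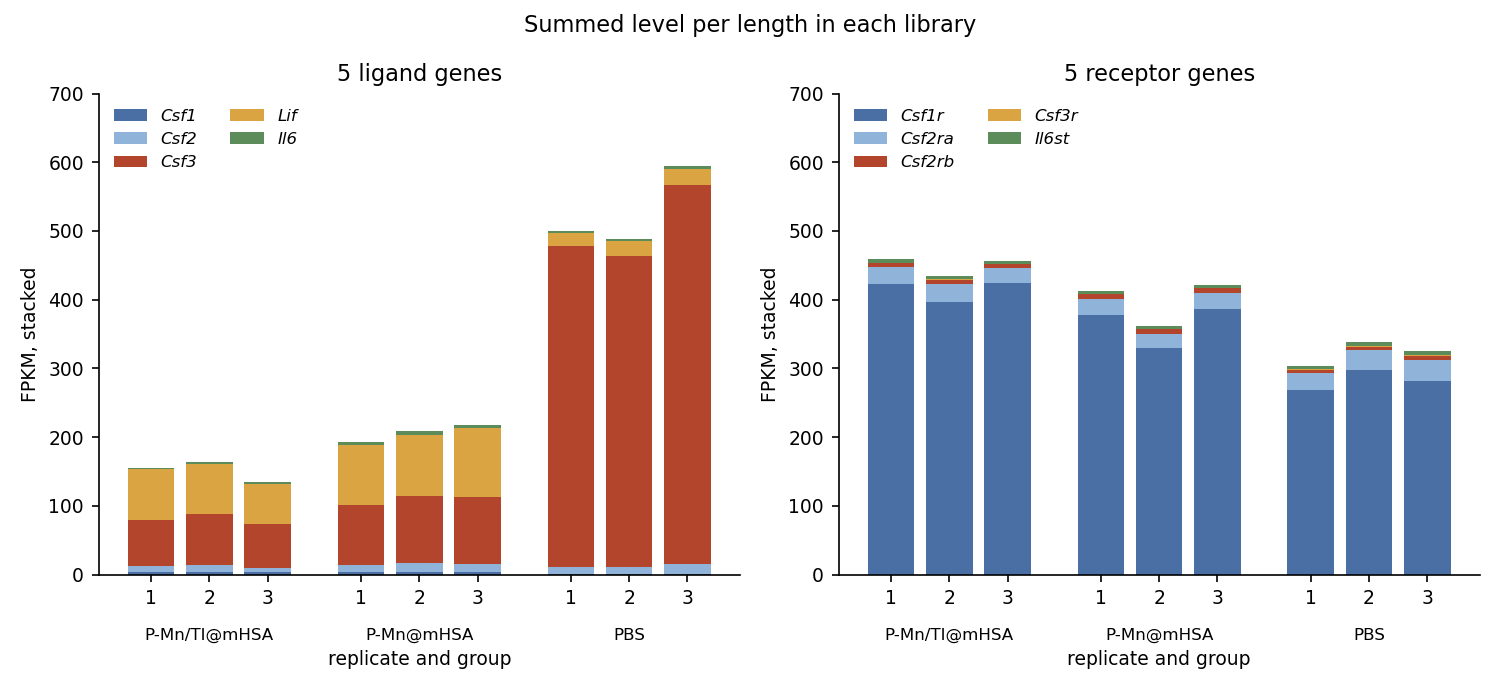
Stacked FPKM of the 5 ligand genes (left) and of the 5 receptor genes (right) in each of the 9 libraries, with the replicate number on the horizontal axis. Csf3 fills most of the ligand bar in PBS (453 to 551 FPKM), while Csf3 and Lif share it in both particle groups (58.4 to 99.6 FPKM each), and Csf1r fills most of the receptor bar throughout.

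The order of the members by mean FPKM changed accordingly. In P-Mn/TI@mHSA it was Csf1r (414), Csf3 (68.7), Lif (68.2), Csf2ra (24.3), Csf2 (8.11), Csf2rb (5.82), Il6st (4.49), Csf1 (3.68), Il6 (2.52) and Csf3r (0.74), and only Csf3 with Lif and Csf2 with Csf2rb were neighbours whose ranges overlapped. In P-Mn@mHSA it was Csf1r (365), Csf3 (94), Lif (92.2), Csf2ra (22.1), Csf2 (12), Csf2rb (6.84), Il6 (4.7), Il6st (4.15), Csf1 (3.35) and Csf3r (0.654), where Csf3 with Lif and Il6 with Il6st overlapped. In PBS it was Csf3 (490), Csf1r (282), Csf2ra (28.1), Lif (20.6), Csf2 (11.4), Il6st (5.2), Csf2rb (4.97), Il6 (4.25), Csf3r (1.32) and Csf1 (1.24), where Il6st overlapped Csf2rb, Csf2rb overlapped Il6 and Csf3r overlapped Csf1. Csf1r was thus above Csf3 per length in all 6 particle libraries, with a ratio of 5.3 to 6.67 in P-Mn/TI@mHSA and 3.4 to 4.34 in P-Mn@mHSA, and below it in the 3 PBS libraries, at 0.511 to 0.658. The ratio of Csf3 to Lif was 0.918 to 1.09 in P-Mn/TI@mHSA and 0.979 to 1.09 in P-Mn@mHSA, against 21.8 to 25.2 in PBS. The receptor genes that can answer a ligand differed widely in level: Csf1r exceeded its ligand gene Csf1 by 109 to 115 times in P-Mn/TI@mHSA, 100 to 120 times in P-Mn@mHSA and 206 to 261 times in PBS, whereas Csf3r stayed at 0.41 to 1.73 FPKM over the 9 libraries.

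The first comparison asked what the nanoenzyme particles did relative to PBS. Of the 10 members, 4 were higher with P-Mn@mHSA (Csf1, Lif, Csf1r and Csf2rb), 4 were lower (Csf3, Csf2ra, Csf3r and Il6st) and 2 (Csf2 and Il6) did not pass, and groups did not overlap for 8. Over all 12454 genes 48.5% were called in this comparison, 24.3% higher and 24.1% lower, and 54.6% had groups that did not overlap, so a called member is not rare here. When libraries were scaled by their totals only, 37.8% of all called genes were higher, against 50.2% with TMM, and the 8 member calls stood. What set Csf3, Lif and Csf1 apart from most genes was the size of their change: the median absolute log2 fold change over all genes was 0.29, and 1.24%, 1.59% and 4.42% of genes had a larger one than Csf3, Lif and Csf1.

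Csf3 on chromosome 11, which encodes G-CSF, had 124, 138 and 139 CPM with P-Mn@mHSA, against 667, 646 and 785 CPM in PBS. Every particle library lay far below every PBS library. Csf3 fell 5.24-fold (log2 fold change -2.39, SE 0.0784, edgeR adjusted p 9.07e-16) and kept this call when each library was left out in turn. In these bulk libraries, fewer cells that transcribe a gene and less RNA per cell cannot be told apart. Lif, which encodes a gp130 cytokine and lies on the same chromosome, moved the opposite way. It had 386, 388 and 436 CPM with P-Mn@mHSA, against 81.3, 91.1 and 98.7 CPM in PBS, and all 3 particle libraries were above all PBS libraries. Lif rose 4.46-fold (log2 fold change 2.16 ± 0.0863, edgeR adjusted p 1.99e-14).

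Csf1, the gene of the macrophage growth factor on chromosome 3, was the lowest ligand per length in PBS. It had 16.7, 16.2 and 20.5 CPM with P-Mn@mHSA, against 6.94, 6.08 and 6.75 CPM in PBS, again without overlap. Csf1 rose 2.7-fold (log2 fold change 1.43 ± 0.135, edgeR adjusted p 2e-08). Csf2, the GM-CSF gene, had 8.12, 11.2 and 9.73 CPM with P-Mn@mHSA and 7.7, 7.99 and 11.8 CPM in PBS, and Il6 had 9.27, 14.1 and 11.1 CPM with P-Mn@mHSA and 10.2, 9.09 and 12 CPM in PBS. The groups overlapped for both genes. Their fold changes were 1.05 for Csf2 (95% interval 0.806 to 1.38, edgeR adjusted p 0.763) and 1.1 for Il6 (0.85 to 1.43, adjusted p 0.545). The sign of both turned in some alternatives.

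Among the receptors, Csf1r on chromosome 18, the receptor kinase of CSF1, had 2199, 1915 and 2247 CPM with P-Mn@mHSA, against 1562, 1735 and 1639 CPM in PBS. The groups did not overlap, and Csf1r rose 1.29-fold (log2 fold change 0.37 ± 0.0638, edgeR adjusted p 6.84e-05). Exons of Csf1r overlap those of Hmgxb3 on the opposite strand, and Hmgxb3, at 98.4 ± 11 CPM with P-Mn@mHSA and 81.6 ± 7.56 CPM in PBS, was higher too (log2 fold change 0.27, edgeR adjusted p 0.0169). The strand setting of the counting is not known here, and reads of the shared stretch cannot be told apart. Csf2ra (chromosome 19), the ligand-specific chain of the GM-CSF receptor, had 66.9, 59.3 and 65 CPM with P-Mn@mHSA, against 75.1, 81.4 and 88 CPM in PBS. It fell 1.28-fold with no overlap (log2 fold change -0.35 ± 0.0817, edgeR adjusted p 0.00114). Csf2rb (chromosome 15), the shared signalling chain, moved the other way, at 50.9, 45.6 and 53.7 CPM with P-Mn@mHSA, against 27.8, 38.1 and 43.6 CPM in PBS. It rose 1.37-fold (log2 fold change 0.46 ± 0.122, edgeR adjusted p 0.00397), just missing the threshold with limma on log2(FPKM + 0.1) (adjusted p 0.0509). The count of Csf2rb is uncertain, since 12.3% of its 50-base words also occur in other genes, mostly its near copy Csf2rb2, which had 4.8 ± 1.77 CPM with P-Mn@mHSA and 3.32 ± 1.05 CPM in PBS without passing (edgeR adjusted p 0.116).

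Csf3r (chromosome 4), the receptor of G-CSF, had few reads: 22, 42 and 38 with P-Mn@mHSA, against 43, 92 and 76 in PBS. The groups did not overlap, by 1 read between the nearest libraries. Csf3r fell 2.02-fold (log2 fold change -1.02 ± 0.285, edgeR adjusted p 0.00562), a call lost without PBS replicate 2 (-0.77, adjusted p 0.0561), and 10.5% of its 50-base words also occur elsewhere. Il6st (chromosome 13), the gp130 gene, had 44.7, 46.4 and 47.9 CPM with P-Mn@mHSA, against 53.1, 65.6 and 56 CPM in PBS. It fell 1.26-fold without overlap (log2 fold change -0.33 ± 0.0871, edgeR adjusted p 0.00365). Apart from Csf3r, the receptor changes were 0.33 to 0.46 in absolute log2 size, against a median of 0.29 over all genes.

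**Figure D2:**
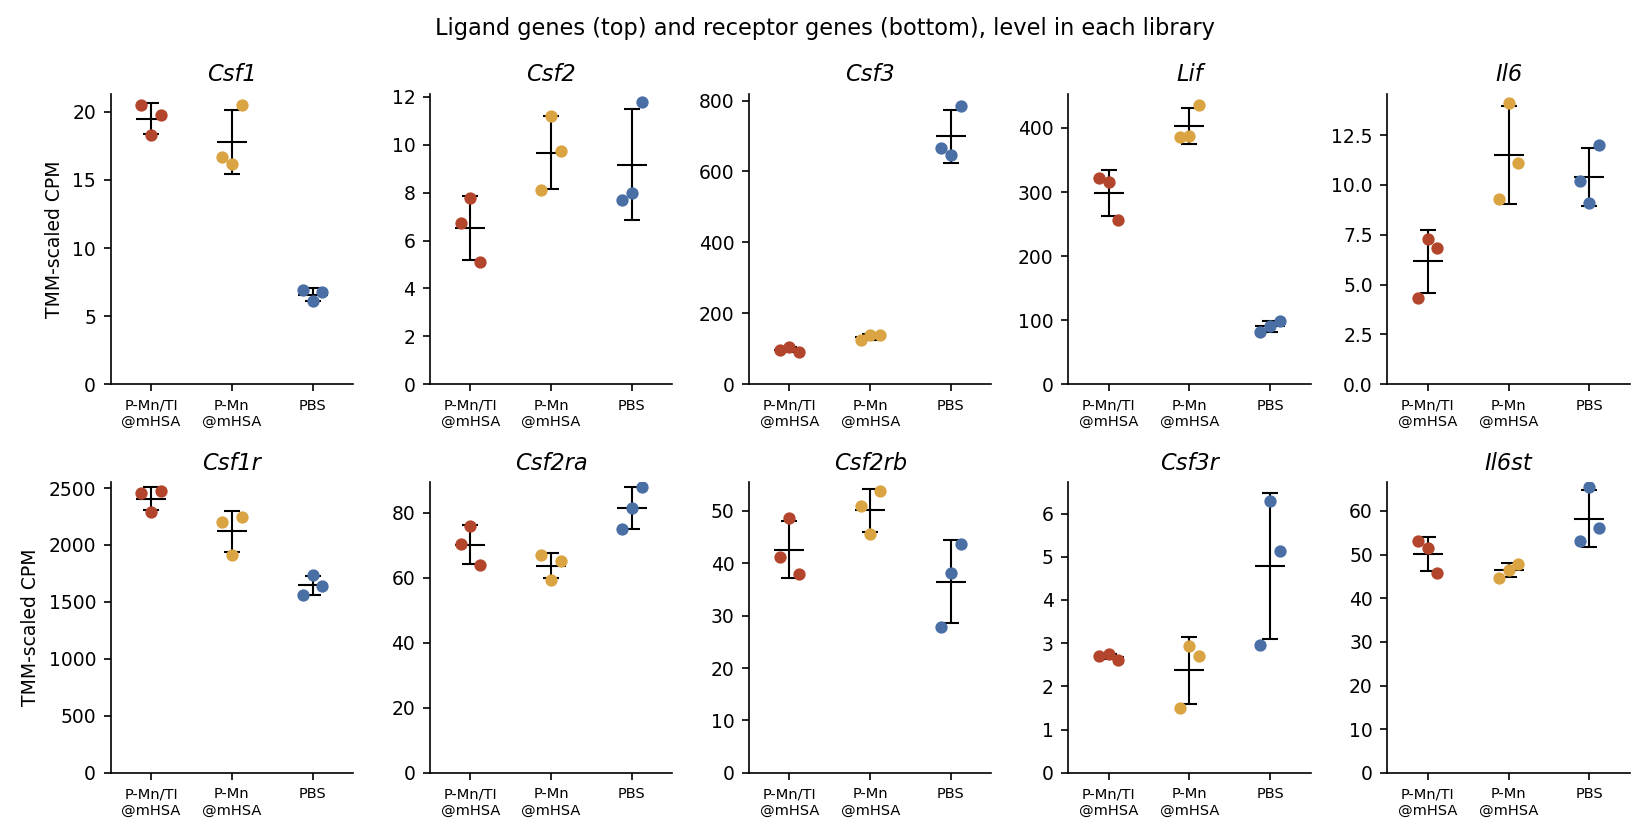
TMM-scaled CPM of each member in every library (points), with group mean and SD (bars, n = 3), ligand genes above and receptor genes below, and P-Mn/TI@mHSA, P-Mn@mHSA and PBS from left to right. Csf3 lies at 90.8 to 139 CPM in the 6 particle libraries and at 646 to 785 CPM in PBS, and Lif at 257 to 436 CPM and 81.3 to 98.7 CPM.

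The particles that carried the TRAF6 inhibitor were then set against PBS. With P-Mn/TI@mHSA 3 members were higher (Csf1, Lif and Csf1r), 6 were lower (Csf3, Csf2, Il6, Csf2ra, Csf3r and Il6st) and Csf2rb did not pass, and groups did not overlap for 7. Over all genes 54.4% were called, 27.1% higher and 27.3% lower, and 61.5% had groups that did not overlap, with a median absolute log2 fold change of 0.33. With scaling by totals only, 39.4% of all called genes were higher, against 49.8% with TMM, and the 9 member calls stood. This comparison shares its PBS libraries with the one before, so the 2 sets of values are not independent.

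Csf3 had 95.9, 106 and 90.8 CPM with P-Mn/TI@mHSA, against the PBS values given above, without overlap and and its log2 fold change was -2.84 (SE 0.0802, edgeR adjusted p 9.03e-17). Only 0.771% of tested genes had a larger absolute change. Lif had 322, 316 and 257 CPM with P-Mn/TI@mHSA, all above the highest PBS library at 98.7 CPM, and rose 3.3-fold (log2 fold change 1.72 ± 0.0856, edgeR adjusted p 7.43e-13). Csf1 had 20.5, 18.3 and 19.8 CPM, all above the highest PBS library at 6.94 CPM, and rose 2.96-fold (log2 fold change 1.57 ± 0.134, edgeR adjusted p 4.29e-09).

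Il6 had 4.34, 7.31 and 6.83 CPM with P-Mn/TI@mHSA, all below the lowest PBS library at 9.09 CPM, and fell 1.69-fold (log2 fold change -0.75, SE 0.192, edgeR adjusted p 0.00224). Csf2 had 6.71, 7.76 and 5.09 CPM with P-Mn/TI@mHSA, and the groups overlapped, because the highest of these libraries lay above the lowest PBS library at 7.7 CPM. Csf2 fell 1.41-fold (log2 fold change -0.49 ± 0.192, edgeR adjusted p 0.0355). That call was lost with DESeq2 (adjusted p 0.0682), with limma (0.0817) and without replicate 1 (0.067) or replicate 3 (0.178) of P-Mn/TI@mHSA or PBS replicate 3 (0.28). The Csf2 exons also overlap an antisense gene, Gm12223, which was listed with 0 counts in every library.

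Csf1r had 2454, 2294 and 2474 CPM with P-Mn/TI@mHSA, all above the highest PBS library at 1735 CPM, and rose 1.46-fold (log2 fold change 0.55 ± 0.0639, edgeR adjusted p 3.27e-07), with Hmgxb3 at 103 ± 10.5 CPM higher as well (log2 fold change 0.34, edgeR adjusted p 0.00314). Csf3r had 40, 42 and 39 reads with P-Mn/TI@mHSA, fewer than any PBS library, and fell 1.78-fold (log2 fold change -0.83 ± 0.279, edgeR adjusted p 0.0154). Without PBS replicate 2 Csf3r no longer passed (adjusted p 0.122). The falls of Csf2ra and Il6st were smaller than the median absolute change of all genes. Csf2ra had 70.5, 75.9 and 63.8 CPM with P-Mn/TI@mHSA, overlapping PBS (log2 fold change -0.22 ± 0.0812, edgeR adjusted p 0.0276), and Il6st had 53.1, 51.5 and 45.7 CPM, its highest library level with the lowest of PBS after rounding (log2 fold change -0.22 ± 0.0865, adjusted p 0.0389). Each of these calls was lost in 6 of 16 alternatives. Without single libraries the adjusted p of Csf2ra was 0.0536 (PBS replicate 2), 0.152 (PBS replicate 3), 0.0659 (P-Mn/TI@mHSA replicate 1) and 0.169 (P-Mn/TI@mHSA replicate 3), and that of Il6st was 0.252 (PBS replicate 2) and 0.198 (P-Mn/TI@mHSA replicate 3). Csf2rb had 41.2, 48.6 and 37.9 CPM, overlapping PBS, with a fold change of 1.17 (95% interval 0.977 to 1.39, edgeR adjusted p 0.134), and passed without PBS replicate 3 (adjusted p 0.0201).

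The last comparison, of P-Mn/TI@mHSA with P-Mn@mHSA, asked what the TRAF6 inhibitor added to the particles. Of the 10 members 3 were lower (Csf3, Lif and Il6), all of them ligands, 0 were higher by edgeR, and the 5 receptors did not pass. At an unadjusted p under 0.05, 4 ligands were lower, 0 higher, and 1 receptor was higher; DESeq2 called the same numbers as edgeR and limma called 0. Over all genes 3.82% were called, 1.48% higher and 2.34% lower, 24% had groups that did not overlap, which held for 5 members, and the median absolute log2 fold change was 0.13. The ligands' median log2 fold change was -0.45 and the receptors' 0.14, against -0.01 over all genes.

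Csf3 had 95.9, 106 and 90.8 CPM with P-Mn/TI@mHSA, against 124, 138 and 139 CPM with P-Mn@mHSA. Csf3 fell 1.37-fold without overlap (log2 fold change -0.45, SE 0.078, edgeR adjusted p 0.002), in the same direction as its fall against PBS. Lif, at 322, 316 and 257 CPM with P-Mn/TI@mHSA against 386, 388 and 436 CPM with P-Mn@mHSA, fell 1.35-fold (log2 fold change -0.44 ± 0.0812, edgeR adjusted p 0.00395) and remained above PBS. Neither call was lost when a single library was left out, and both were lost with limma on log2(FPKM + 1) (adjusted p 0.0789 for Csf3 and 0.111 for Lif). Csf3 and Lif fell by nearly the same factor, so their ratio per length changed little between the particles. It was 1.01 ± 0.0876 with P-Mn/TI@mHSA and 1.02 ± 0.0628 with P-Mn@mHSA (SD, n = 3 each).

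Il6, the gene of the acute-phase cytokine, had 4.34, 7.31 and 6.83 CPM with P-Mn/TI@mHSA, against 9.27, 14.1 and 11.1 CPM with P-Mn@mHSA. Il6 fell 1.86-fold without overlap (log2 fold change -0.90 ± 0.191, edgeR adjusted p 0.011), and 2.1% of tested genes had a larger absolute change. Il6 no longer passed once its highest library, P-Mn@mHSA replicate 2, was left out (adjusted p 0.0589), or its lowest, P-Mn/TI@mHSA replicate 1 (0.0857). Csf2 was 1.48-fold lower at 6.71, 7.76 and 5.09 CPM against 8.12, 11.2 and 9.73 CPM, without overlap, and missed the threshold (log2 fold change -0.57, 95% interval -0.96 to -0.17, edgeR adjusted p 0.0986). Csf1 was the one ligand with a positive fold change, 1.1 (95% interval 0.921 to 1.31, edgeR adjusted p 0.582). Csf1r lay at 2294 to 2474 CPM with P-Mn/TI@mHSA and 1915 to 2247 CPM with P-Mn@mHSA, without overlap, at 0.18 on the log2 scale (edgeR adjusted p 0.108). For Csf2ra, Csf2rb, Csf3r and Il6st the fold changes were 1.1, 0.85, 1.14 and 1.08, with 95% intervals of 0.977 to 1.24, 0.715 to 1.01, 0.734 to 1.76 and 0.952 to 1.23. Changes of a size within these intervals are not excluded.

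**Figure D3:**
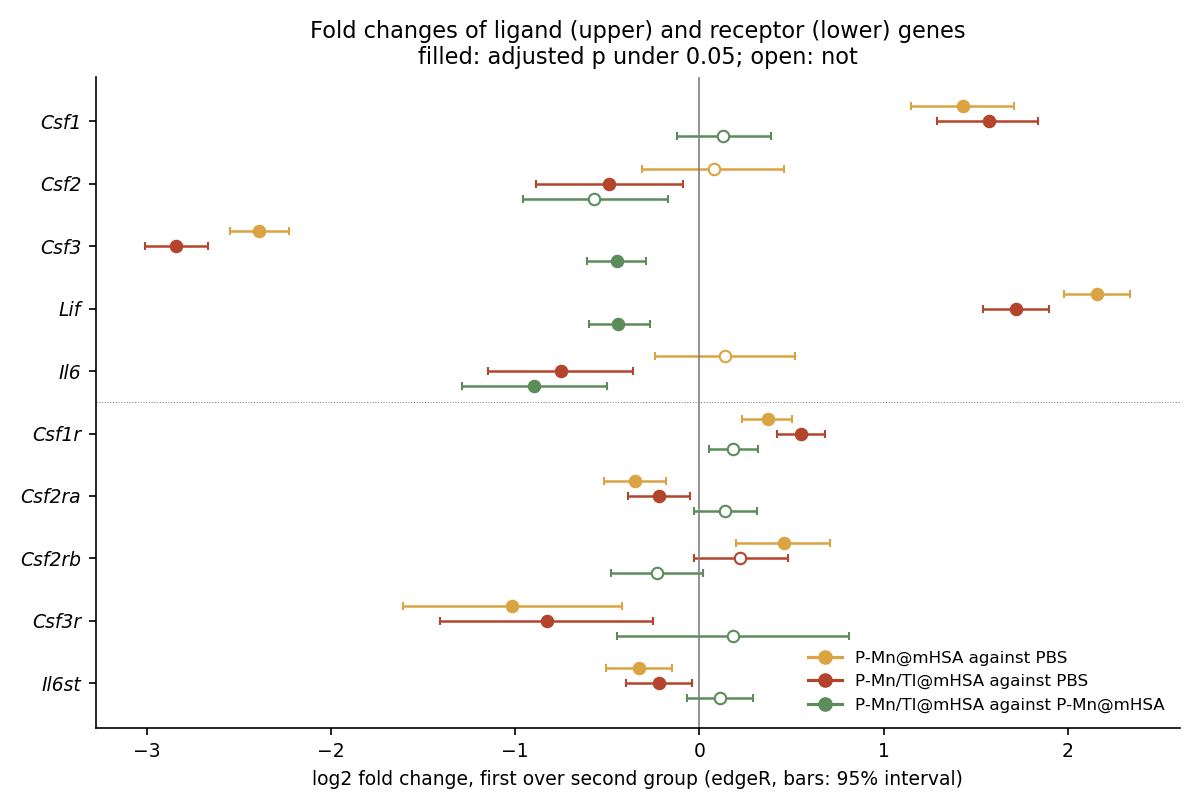
log2 fold changes of the 10 members in the 3 comparisons with 95% intervals (edgeR), ligand genes above the dotted line and receptor genes below. Filled points passed an adjusted p of 0.05: Csf3 (-2.84 and -2.39 against PBS) and Lif (1.72 and 2.16) stand far from 0 on opposite sides, and Csf3, Lif and Il6 were also lower with P-Mn/TI@mHSA than with P-Mn@mHSA.

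The spread between libraries differed among members and groups. The CV of Csf3r was 2.48% with P-Mn/TI@mHSA, 32.6% with P-Mn@mHSA and 35.3% in PBS. At 39 to 42 reads per P-Mn/TI@mHSA library, counting error alone exceeds 2.48%, so that value does not show a smaller spread. The CV of Il6 was 25.9%, 21.2% and 13.9% in the same order. Csf2rb varied by 12.9%, 8.16% and 21.9%, and Csf1 by 5.71%, 13.3% and 6.87%. Csf3 varied by 6.17 to 10.7% and Csf1r by 4.1 to 8.47% within a group. The biological CV that edgeR estimated over the groups was 6.34% for Csf1r, 6.83% for Csf3 and 7.36% for Lif, against 13.7% for Csf2, 13.6% for Il6 and 19.4% for Csf3r. The trend for genes of their level was 6.38%, 6.16% and 6.15%, and 11.2%, 10.9% and 15.5%, in the same order.

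Other genes were ranked by how closely they followed each member across the 9 libraries, and some gene is always nearest. Likeness was the root mean square (RMS) difference of log2 CPM, each gene centred on its own mean. The 3 nearest tested genes of each member were taken, leaving out predicted, clone-named and pseudogene entries. For Csf3, whose own RMS around its mean was 1.25, the nearest were Pdpn, which encodes the membrane glycoprotein podoplanin (0.13), Fabp5, a fatty acid-binding protein gene (0.20), and Urah (0.21). Pdpn had log2 fold changes of -2.93 with P-Mn/TI@mHSA and -2.51 with P-Mn@mHSA against PBS. For Lif (0.94) they were the chemokine gene Cxcl14 (0.12), the actin-binding protein gene Avil (0.14) and the chemokine receptor-like gene Ccrl2 (0.15), and for Csf1 (0.71) they included the growth factor gene Pdgfb (0.11) and the glycosyltransferase gene Lfng (0.12). For Il6 (0.47) they were Ifi202b (0.18), the Fc receptor gene Fcgr4 (0.18) and Scimp (0.20), and for Csf2 (0.35) Crem (0.15), Scimp (0.17) and Pkd1l2 (0.18). Scimp, a membrane adaptor gene, was thus near both, with log2 fold changes of -0.63 with P-Mn/TI@mHSA against PBS, 0.17 with P-Mn@mHSA against PBS and -0.79 between the particles. The receptors' own RMS was small, 0.16 to 0.54, and their nearest genes were Maz, Naa40 and Tmem109 for Csf1r (0.03 to 0.04), Sdc4, Dhx32 and Obi1 for Csf2ra (0.04 to 0.05), Mast1, Pgap4 and Tmem154 for Csf2rb (0.09 to 0.12), Hcn3, Apc and Zfp738 for Csf3r (0.24 to 0.26), and Hipk2, Tecpr2 and Amotl1 for Il6st (0.05 to 0.06). The match was loose for Csf3r, whose own RMS was 0.54. These are descriptions over 9 libraries that share 3 groups.

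The partners that complete these receptors were unevenly present. Lifr, the chain that binds LIF before gp130 joins, had at most 4 reads in any library. Osmr, a receptor chain for oncostatin M, had 0 reads in all 9. By counting error alone, 0 reads in a single library allows up to 3, and 0 in all 9 allows fewer per library. Neither gene was tested. Il34, the other ligand of CSF1R, had 1 to 12 reads per library and was not tested. Il6ra, the chain that binds interleukin-6, had 66.8, 58.8 and 64.4 CPM with P-Mn/TI@mHSA and 62.7, 44.4 and 56.8 CPM with P-Mn@mHSA, against 37.6, 45.2 and 38.5 CPM in PBS. It rose 1.57-fold with P-Mn/TI@mHSA, without overlap (log2 fold change 0.65 ± 0.104, edgeR adjusted p 2.22e-05), and 1.35-fold with P-Mn@mHSA, where the groups overlapped (0.43 ± 0.105, adjusted p 0.00177). Osm, the gene of oncostatin M, a gp130 cytokine close to LIF, had 35, 33.6 and 30.5 CPM with P-Mn/TI@mHSA and 36.8, 39.8 and 47.1 CPM with P-Mn@mHSA, against 28.1, 24.6 and 31.1 CPM in PBS. Osm rose 1.48-fold with P-Mn@mHSA (log2 fold change 0.56 ± 0.105, edgeR adjusted p 0.000142) and did not pass with P-Mn/TI@mHSA (0.24, adjusted p 0.0556) or between the particles (-0.32, adjusted p 0.0863). Csf2rb2 ran from 3.98 to 6.23 CPM with P-Mn/TI@mHSA, against 2.54 to 4.51 CPM in PBS, just short of the threshold (0.64 on the log2 scale, edgeR adjusted p 0.0518).

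The other genes of these pathways were taken from 7 lists, and the median log2 fold change over all tested genes lay within 0.01 of 0 in each comparison. Of 10 other genes listed as gp130 family cytokines 6 were tested. With P-Mn/TI@mHSA 2 were higher and 3 lower (median log2 fold change -0.04), and with P-Mn@mHSA 3 were higher and 2 lower (0.23). Crlf2 stood on this list but encodes a receptor subunit, not a cytokine, and these counts and medians include it among the higher genes. Crlf2 rose 1.52-fold with P-Mn/TI@mHSA and 1.7-fold with P-Mn@mHSA, against 28 ± 0.216 CPM in PBS (edgeR adjusted p 2.82e-06 and 1.4e-07). Il27, whose product is a subunit of interleukin-27, rose 2.15-fold with P-Mn@mHSA, to 11.9 ± 0.335 CPM against 5.52 ± 0.78 CPM in PBS (edgeR adjusted p 1.28e-05). Il11 and Clcf1 fell to a few reads. Il11 had 1 to 5 reads with P-Mn/TI@mHSA and 1 to 8 with P-Mn@mHSA, against 52 to 65 in PBS (edgeR adjusted p 3.15e-07 and 1.03e-06), and Clcf1 had 0 to 4 reads with P-Mn/TI@mHSA, against 18 to 33 in PBS (adjusted p 2.91e-05), so the sizes of their folds are uncertain. Between the particles 0 of the 6 passed by edgeR, DESeq2 or limma, with 3 lower at an unadjusted p under 0.05 (median -0.39).

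Of 6 gp130 family receptor genes 2 were tested, and Il6ra was the one that rose in both comparisons with PBS (list medians 0.39 with P-Mn/TI@mHSA and 0.40 with P-Mn@mHSA). Between the particles 0 passed by edgeR, DESeq2 or limma, and 0 at an unadjusted p under 0.05 (-0.02). Of 12 related ligands and receptor partners 4 were tested. Flt3l, the FLT3 ligand gene, was the one called with P-Mn/TI@mHSA, at 1.69 ± 0.484 CPM against 3.09 ± 0.785 CPM in PBS (edgeR adjusted p 0.0468, groups overlapping), a call lost with DESeq2 and limma and without replicate 2 or 3 of either group. With P-Mn@mHSA and between the particles 0 were called by edgeR, DESeq2 or limma or at an unadjusted p under 0.05. The list medians were 0.26 with P-Mn/TI@mHSA, 0.13 with P-Mn@mHSA and -0.02 between the particles, and 1 gene was higher against PBS for P-Mn@mHSA without replicate 2 of either group or its own replicate 3 (2 also lower), and for P-Mn/TI@mHSA without replicate 2 of either group.

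Downstream of the receptors, 8 of 19 JAK-STAT genes were higher and 5 lower with P-Mn/TI@mHSA (median 0.05), and 6 higher and 5 lower with P-Mn@mHSA (0.09), with 3 lower in the first of these without P-Mn/TI@mHSA replicate 3. Socs3, a feedback inhibitor that binds gp130 and CSF3R, fell 2.8-fold with P-Mn/TI@mHSA, to 181 ± 4.86 CPM, and 2.41-fold with P-Mn@mHSA, to 210 ± 3.33 CPM, against 507 ± 49.7 CPM in PBS (edgeR adjusted p 1.38e-13 and 1.66e-12). The survival gene Mcl1 rose 1.55-fold and 1.54-fold (adjusted p 7.06e-09 and 1.18e-08), in the same order. Between the particles 1 of 19 was higher and 1 lower (median -0.02). These were Myc, 1.33-fold higher at 33.8 ± 2.55 CPM with P-Mn/TI@mHSA against 25.4 ± 2.52 CPM with P-Mn@mHSA (edgeR adjusted p 0.0263), and Cish, a STAT5-induced inhibitor, 1.6-fold lower at 4.22 ± 0.156 CPM against 6.77 ± 1.28 CPM (adjusted p 0.0461). The count of higher genes was 0 without replicate 1 or 2 of either particle group. The count of lower genes was 0 without P-Mn@mHSA replicate 1 or 3 or any one P-Mn/TI@mHSA replicate, and limma called 0 in either direction.

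Of 25 tested genes of CSF1R signalling and receptor processing 11 were higher and 5 lower with P-Mn/TI@mHSA (median 0.09), and 12 higher and 5 lower with P-Mn@mHSA (0.19; 8 lower with scaling by totals only). Adam10, a membrane protease gene, fell 1.6-fold with P-Mn/TI@mHSA and 1.63-fold with P-Mn@mHSA, to 132 ± 12.7 and 129 ± 3.62 CPM, against 211 ± 26.7 CPM in PBS (edgeR adjusted p 4.62e-07 and 3.39e-07). Inpp5d, which encodes the phosphatase SHIP1, rose 1.39-fold with P-Mn/TI@mHSA (adjusted p 6.54e-06), and the kinase gene Src rose 1.96-fold with P-Mn@mHSA (1.02e-06). Between the particles 1 gene was higher and 1 lower (median 0.03). Pik3cd, a phosphoinositide kinase gene, was 1.24-fold higher (edgeR adjusted p 0.011). The count of higher genes was 0 without P-Mn/TI@mHSA replicate 1, and that of lower genes was 0 without P-Mn/TI@mHSA replicate 2 or 3, and limma called 0 in either direction.

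Of 18 tested genes listed as AU-rich or stem-loop mRNA decay factors, 4 were higher and 10 lower with P-Mn/TI@mHSA (median -0.23). The numbers were the same for P-Mn@mHSA (-0.26). The list also holds genes of other function, such as Arid5a below, so its medians do not measure decay of the ligand mRNAs. Zc3h12c, a relative of the RNase regnase-1, fell 2.91-fold with P-Mn/TI@mHSA and 2.89-fold with P-Mn@mHSA, to 28.1 ± 0.985 and 28.3 ± 3.62 CPM, against 81.8 ± 6.16 CPM in PBS (edgeR adjusted p 1.36e-11 and 1.46e-11). Arid5a, whose product is known to stabilise Il6 mRNA, rose 2.15-fold and 2.39-fold, to 30.4 ± 0.99 and 33.8 ± 5.32 CPM, against 14.1 ± 0.579 CPM in PBS (adjusted p 5.07e-08 and 8.19e-09). Hnrnpd, the AUF1 gene, rose 1.47-fold in both (adjusted p 4.57e-08 and 5.41e-08). Between the particles edgeR and limma called 0 of 18, DESeq2 1 higher and 1 lower, with 3 higher and 2 lower at an unadjusted p under 0.05 (median 0.03), and 1 was higher by edgeR without P-Mn@mHSA replicate 3.

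Of 22 tested transcription factor genes known to act on Csf2, Csf3, Lif or Il6, 13 were higher and 4 lower with P-Mn/TI@mHSA (median 0.26), and 12 higher and 3 lower with P-Mn@mHSA (0.37). Atf3 rose 6.33-fold with P-Mn/TI@mHSA and 7.36-fold with P-Mn@mHSA, and Egr1 4.8-fold and 5.13-fold. Fos, an AP-1 subunit gene, rose 3.02-fold with P-Mn/TI@mHSA, to 46.6 ± 0.535 CPM against 15.4 ± 1.46 CPM in PBS (edgeR adjusted p 1.1e-11), and Junb, another AP-1 subunit gene, rose 2.04-fold with P-Mn@mHSA, to 784 ± 22.6 CPM against 384 ± 31.6 CPM in PBS (adjusted p 5.18e-11). Between the particles edgeR, DESeq2 and limma each called 0 of 22, with 3 higher and 4 lower at an unadjusted p under 0.05 (median -0.07), and edgeR called 1 lower without P-Mn@mHSA replicate 3, and likewise without P-Mn/TI@mHSA replicate 2. The lists were chosen with earlier results of these data known, and their counts stand beside 54.4%, 48.5% and 3.82% of all genes called for P-Mn/TI@mHSA against PBS, for P-Mn@mHSA against PBS and between the particles.

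**Figure D4:**
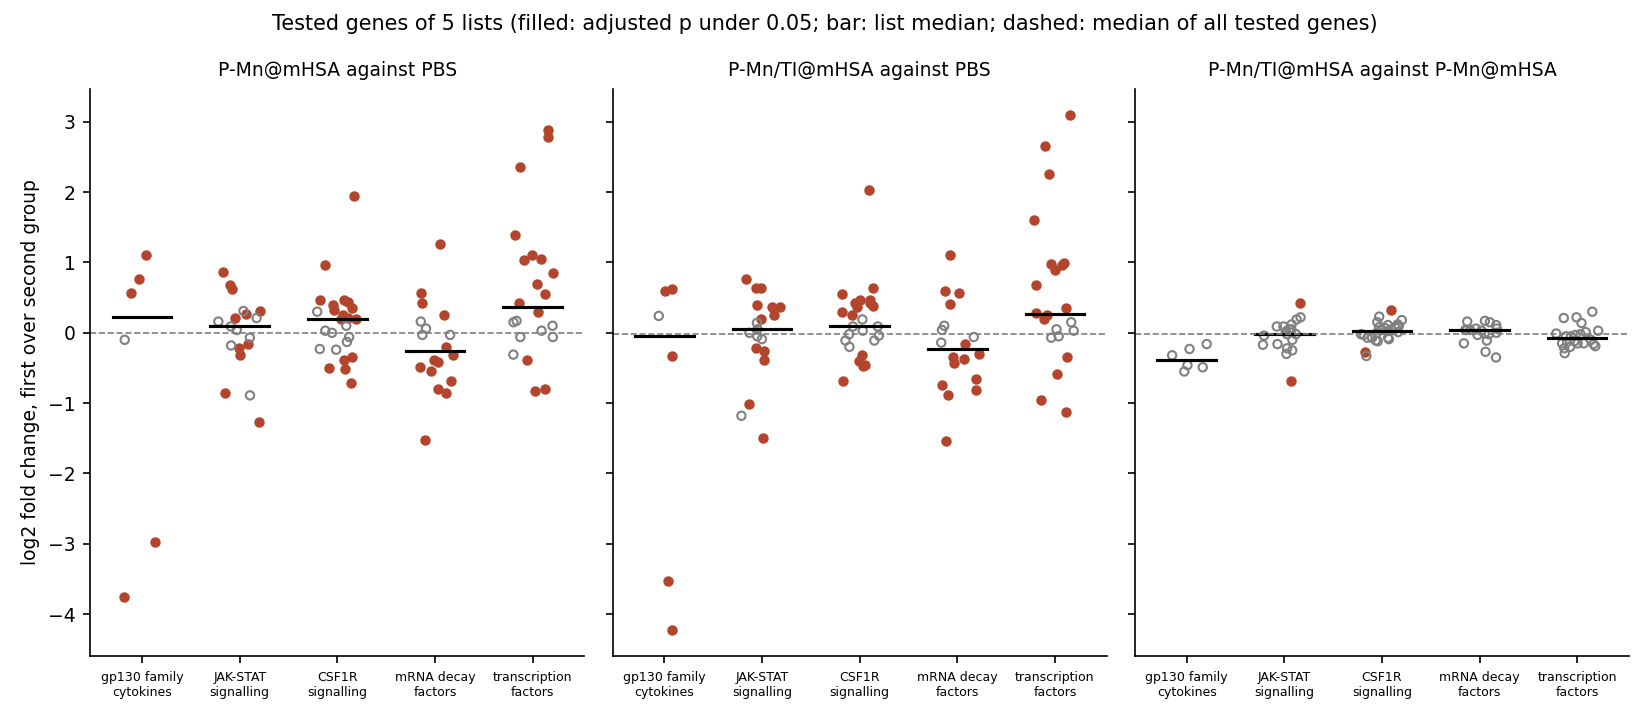
log2 fold changes of the tested genes of 5 lists (1 point a gene, filled where the adjusted p was under 0.05) in the 3 comparisons, with the list median (bar) and the median of all tested genes (dashed line). The mRNA decay list, a mixed one that also holds the stabiliser gene Arid5a, has medians of -0.23 and -0.26 against PBS. The transcription factor list has 0.26 and 0.37 (P-Mn/TI@mHSA and P-Mn@mHSA in both cases), and few points are filled between the particles.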

How the data were processed

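RNA sequencing libraries came from RAW264.7 cells, 3 per group, grouped by sample title. Per the file headers, the authors deposited 1 table with raw read counts and FPKM per gene and library. Each deposited FPKM was recovered from the count by dividing by gene length and by 1 library constant, so both hold the same reads. The tools cutadapt 1.9 and FastQC and the build GRCm38 are named in the submitters' processing notes. How reads were aligned and counted, by strand and at multiple matches, was not given in the sources used here. The table's own coordinates do not match GENCODE M21, so only chromosomes are taken from it.

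Counts were tested with edgeR 4.0.16 (R 4.3.3): filterByExpr kept 12454 genes and at least 99.873% of each library's counts, TMM set the library scaling, and the 9 libraries entered 1 quasi-likelihood fit, with Benjamini-Hochberg adjustment within each of 3 comparisons and 95% intervals from the same fit. The scripts were tested on simulated counts. Alternatives were other scalings and filters, DESeq2 1.42.0, limma 3.58.1 on log2(FPKM + 1) or log2(FPKM + 0.1) over genes of mean FPKM of at least 0.5, a replicate block, 2 groups alone, and each library left out.

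Every member was named. From 7 gene lists the up to 3 called genes of lowest p per comparison and the direct partners were named, and for each member the 3 tested genes of smallest RMS difference of log2 CPM (prior count 2). Predicted, clone-named and pseudogene entries were left out of that ranking. Some genes that this rule selects are not reported here. The members and lists were chosen with earlier results of these data known. Shared 50-base words and 3′ UTRs came from GENCODE M21 transcripts, promoters from RefSeq GRCm38.p6.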

Additional observations from a re-analysis of the deposited data

How the results depend on the processing

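The 30 member results (10 genes in 3 comparisons) were each recomputed under 16 alternatives: 440 of 480 values kept their direction and their side of the threshold, 30 calls were lost, 4 were gained and 6 directions turned. The directions that turned were of uncalled values: Csf2 with P-Mn@mHSA against PBS under scaling by library totals (-0.004) and with 1 library left out (-0.04 to 0.30), Il6 in the same comparison with 1 library left out (-0.03 to 0.28), and Csf3r between the particles with 1 library left out (-0.07 to 0.37).

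With P-Mn/TI@mHSA against PBS the number of lower members was 3 with limma on log2(FPKM + 1), 2 with limma on log2(FPKM + 0.1) and 3 to 6 with 1 library left out, against 6. Between the particles the number of lower members was 0 with either limma fit, against 3, and 1 member was higher when all genes with at least 1 count were tested, against 0. Over all genes in that comparison, 298 were higher and 493 lower with at least 1 count, 302 higher with DESeq2, 14 higher and 62 lower with limma on log2(FPKM + 1), 8 higher and 40 lower with limma on log2(FPKM + 0.1), and 30 to 327 higher and 99 to 467 lower with 1 library left out, against 184 and 292. The fewest were called without P-Mn/TI@mHSA replicate 1 and the most without P-Mn@mHSA replicate 3. The cause was not tested. Of 672 list counts, 33 were lower and 20 higher by over 1.5 times.

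Libraries of the same number shared no visible deviation (r -0.0661 to 0.0611 over 9 pairs, and the own number correlated best in 2). No label says what the numbers mark, and these correlations cannot settle whether they pair libraries. With the replicate as a block 97 genes were higher between the particles, against 184, and 0 member calls changed. Csf3r, Il6, Csf2 and Csf1 rest on 22 to 303 reads per library, which limits what could be detected for them.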
